A study of Mus musculus with 6 samples.

Results

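Of the 24067 genes in a count table of mouse tongues, 10 are described here: the transcription factors Snai1, Snai2, Twist1, Twist2, Zeb1 and Zeb2, the cadherins Cdh1 and Cdh2, the intermediate filament gene Vim and the splicing factor gene Esrp1. They were found by symbol, and all 10 were in the table and among the 15903 genes with enough counts to test. The samples were 6 tongues with tumours from C57BL/6 mice about 34 weeks old, 3 labelled HuR KO (knockout) and 3 labelled HuR WT (wild type). All 6 mice had been given 4-nitroquinoline 1-oxide (4NQO), a carcinogen that causes tumours of the tongue, for 16 weeks and were kept for another 12 weeks, so there was no untreated tongue in the comparison. The labels do not say which promoter or Cre line was used, in which cells the gene was deleted, or how the replicates of a group arose. The p-values therefore measure the spread between these samples. HuR, encoded by Elavl1, binds AU-rich elements in messenger RNAs.

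Epithelial-mesenchymal transition (EMT) is the process in which epithelial cells lose their junctions and gain features of migrating mesenchymal cells. Snail, Twist and Zeb factors repress epithelial genes, first among them Cdh1, while Cdh2 and Vim mark the mesenchymal state. A loss of Cdh1 with a gain of Cdh2 is called the cadherin switch. Zeb factors and the miR-200 family of microRNAs repress each other, and Esrp1, which directs epithelial splicing, is repressed by Zeb1. In a whole tongue Zeb1, Zeb2, Twist2 and Vim are also normal products of stromal cells, and Cdh1 and Esrp1 of the surface epithelium.

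Counts per library summed to between 29543352 and 51520707. Levels are given as CPM, the usual depth-scaled counts, on library sizes adjusted by TMM, a correction for differences in library composition. The targeted gene, Elavl1, had 65.0, 59.3 and 78.4 CPM in KO-labelled libraries, against 61.7, 55.8 and 48.0 CPM in WT-labelled ones, so its level did not follow the labels (log2 fold change 0.29 ± 0.15 SE, edgeR adjusted p = 0.180). The labels do not name the deleted exons, and the counts are for the whole gene, so KO and WT below mean the labels. Xist and Y-linked genes marked KO replicates 2 and 3 as female and the other 4 libraries as male. Keratins, collagens, muscle actin, endothelial and leukocyte genes were all present: Krt14 averaged 5305 ± 721 CPM in KO and 2261 ± 1156 CPM in WT tongues, and Acta1 averaged 4747 ± 1085 CPM in KO and 11435 ± 4697 CPM in WT tongues (SD, n = 3 each). In such bulk samples, fewer cells of a type and less RNA per cell cannot be told apart.

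Of the 10 genes, Esrp1 rose and Zeb1 fell in KO tongues. Esrp1 was 1.82-fold WT and Zeb1 was 0.574-fold WT. Thus 1 of 10 was called higher and 1 of 10 lower (edgeR quasi-likelihood test, Benjamini-Hochberg adjusted p under 0.05 over all genes), where 4.81% of all tested genes were called higher and 7.43% lower. The KO and WT libraries of 5 of the 10 did not overlap, against 44.1% of all genes. An unadjusted p under 0.05 was reached by 6 of the 10, with Esrp1, Cdh1 and Snai2 above WT and Zeb1, Zeb2 and Cdh2 below it, against 38.5% of all genes (18.2% above and 20.3% below). The median log2 fold change was -0.09 over the 10 genes and 0.02 over all genes. No test over the list was made. DESeq2 on the same counts called 2 of the 10 higher (Esrp1 and Cdh1) and 3 lower (Zeb1, Zeb2 and Cdh2), where it called 12.1% of all genes higher and 15.9% lower. When WT replicate 1 was left out, edgeR called 3 of the 10 higher and 3 lower, where 17.9% and 18.1% of all genes were. When WT replicate 3 was left out it called 0 higher and 1 lower, where 1.81% and 2.69% of all genes were. When KO replicate 1, KO replicate 2, KO replicate 3 or WT replicate 2 was left out it called 0 of the 10. An unadjusted p under 0.05 was reached by 5, 4, 4 and 4 of them. Of 15967 genes tested without KO replicate 1, 1922 lay above WT and 2262 below it at that unadjusted threshold. Without KO replicate 2 it was 1993 and 2334 of 16204, and without KO replicate 3 it was 2495 and 2917 of 15993. Without WT replicate 2 it was 1640 and 2329 of 16016. Those fits called few genes anywhere: 4 higher and 6 lower, 0 and 0, 49 and 3, and 0 and 1, so nothing about the 10 genes can be read from these counts of 0. With sex as a covariate, Zeb1 had a log2 fold change of -0.84 and Esrp1 of 0.90. Both female libraries were KO, and every WT library was male. The group difference in this fit therefore rests on KO replicate 1 alone, and no call is read from it.

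**Figure D1:**
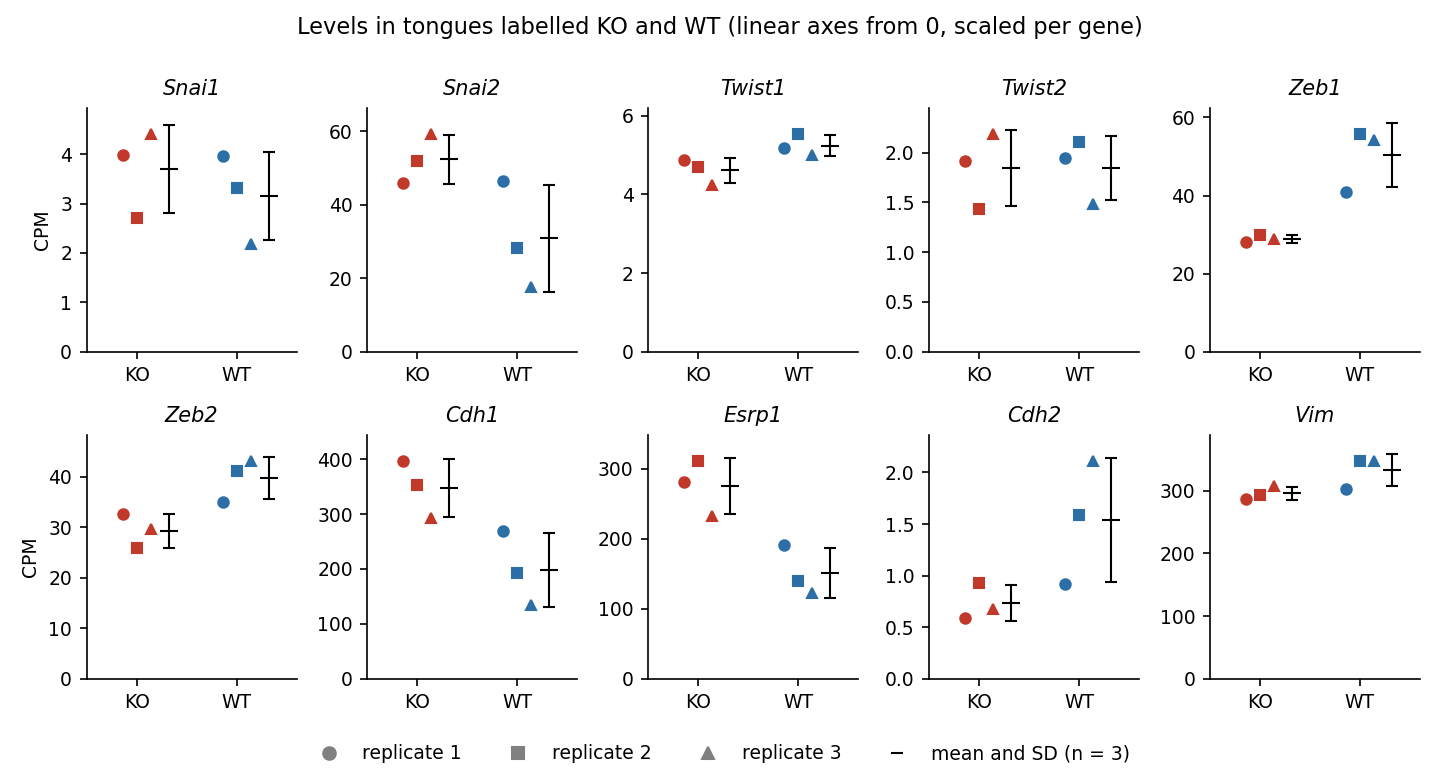
CPM of each of the 10 genes in the 3 KO tongues (left) and the 3 WT tongues (right) of each panel, on linear axes that start at 0 and are scaled per gene; points are libraries and bars are the mean with its SD. The KO and WT points of Twist1, Zeb1, Zeb2, Cdh1 and Esrp1 do not overlap, and the 3 KO points of Zeb1 lie between 28.0 and 29.9 CPM.

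Zeb1 is a zinc-finger and homeodomain repressor of Cdh1, on chromosome 18 (GRCm38, 18:5591327-5775468, plus strand). It measured 28.0, 29.9 and 28.8 CPM in KO tongues, against 40.9, 55.8 and 54.2 CPM in WT tongues. The 3 KO tongues were nearly equal, and every one lay below every WT tongue. Zeb1 differed by -0.80 ± 0.14 on the log2 scale (SE), with a 95% interval of -1.13 to -0.47 and an edgeR adjusted p of 0.0325. The call was lost when KO replicate 1, KO replicate 2, KO replicate 3 or WT replicate 2 was left out (adjusted p = 0.126, 0.129, 0.0626 and 0.128), and it was kept without WT replicate 1 or WT replicate 3 (0.00321 and 0.0394), with log2 fold changes of -0.91 to -0.72 over these 6 fits.

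Zeb2, the close relative of Zeb1 on chromosome 2 (GRCm38, 2:44983512-45117442, minus strand), measured 32.6, 25.9 and 29.6 CPM in KO tongues, against 35.0, 41.2 and 43.1 CPM in WT tongues. The groups did not overlap, but KO replicate 1 and WT replicate 1 were close to each other. Its log2 fold change was -0.44 ± 0.14 (95% interval -0.75 to -0.12), and its adjusted p of 0.0662 missed the threshold in edgeR, while DESeq2 gave 0.0334 and edgeR without WT replicate 1 gave 0.0251. The antisense gene Zeb2os covers 653 bases of Zeb2 exons and had 33 to 74 counts a library. Whether the counting used strand is not stated in the labels or headers.

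The RNAs of the microRNA family that represses both Zeb genes are shown because Zeb1 and Zeb2 hold more matches to their seeds than the other 8 genes do. These are the mature mouse sequences from RefSeq (GRCm38.p6), 5′ to 3′, with the seed, bases 2 to 8, in capitals; the first 3 share one seed and the other 2 share another.
mmu-miR-200b-3p: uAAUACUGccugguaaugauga
mmu-miR-200c-3p: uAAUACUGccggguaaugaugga
mmu-miR-429-3p: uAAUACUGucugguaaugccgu
mmu-miR-200a-3p: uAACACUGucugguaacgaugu
mmu-miR-141-3p: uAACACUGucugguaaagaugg
These libraries do not measure mature microRNAs: the rows of the 5 precursor genes held 0 to 6 counts a library.

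The DNA letters that pair with the first seed are CAGTATT, and those that pair with the second are CAGTGTT. In the longest annotated 3′ UTR of each gene (GENCODE M21, GRCm38, sense strand only), Zeb1 held 5 of the first and 4 of the second, and so did Zeb2. Snai2 held 2 matches in all and Snai1 held 1, and none of these letters was found in Twist1, Twist2, Cdh1, Cdh2, Vim or Esrp1. Of 14267 tested genes with a 3′ UTR of at least 50 bases, 14.9% held CAGTATT, 20.0% held CAGTGTT, 29.1% held either, and 3, Zeb1 and Zeb2 among them, held 9 or more in all. The following stretches of 30 bases from the Zeb2 3′ UTR, minus strand, carry 4 of its 9 matches, in capitals.
chr2:44988162-44988191: ctaccatacatCAGTATTttattattatta
chr2:44987735-44987764: agcacccgtgtCAGTATTagacgactaggc
chr2:44987814-44987843: ccatccttgtaCAGTGTTcagagggtaacg
chr2:44987773-44987802: tgcaccagcttCAGTGTTaagctcaccgtg
The letters ATTTA, the core of the AU-rich elements that HuR binds, occurred 26 times in the 3′ UTR of Zeb2, or 5.26 per kb, a density above 94.7% of these genes. Zeb1 and Esrp1 held 6 each, Twist2 held 4, Snai1, Snai2, Twist1, Cdh1 and Cdh2 held 2 each, and Vim held 0. The median gene had 1.27 per kb, and 69.2% of genes held at least 1. Such matches describe the letters, and binding was not measured.

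Esrp1 encodes an epithelial splicing regulator (GRCm38, 4:11331933-11386783, minus strand). It measured 281, 311 and 232 CPM in KO tongues, against 191, 139 and 122 CPM in WT tongues. The lowest KO tongue, replicate 3, was above the highest WT tongue, replicate 1. On the log2 scale the difference was 0.86 ± 0.20 (SE), with a 95% interval of 0.40 to 1.33 and an edgeR adjusted p of 0.0400. The call held without WT replicate 1 (adjusted p = 0.00483) and was lost when KO replicate 1, KO replicate 2, KO replicate 3, WT replicate 2 or WT replicate 3 was left out (adjusted p = 0.134, 0.135, 0.0639, 0.149 and 0.0684), with log2 fold changes of 0.73 to 1.09. Esrp2, its paralog and a gene of the epithelial list described further on, had a log2 fold change of 0.71 ± 0.21 (adjusted p = 0.0562). Per kb of transcript, the log2 ratio of Esrp1 to Zeb1 was 3.92, 3.96 and 3.60 in KO tongues, against 2.81, 1.90 and 1.76 in WT tongues. Each gene alone had groups that did not overlap, in opposite directions. The groups of this ratio therefore could not overlap, and it adds no further result.

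Cdh1 encodes E-cadherin, the adhesion molecule of epithelial junctions (GRCm38, 8:106603350-106670247, plus strand). It measured 397, 353 and 293 CPM in KO tongues, against 269, 192 and 135 CPM in WT tongues. The groups did not overlap, and WT replicate 1 came closest to the KO tongues. Cdh1 was 1.75-fold WT, with a log2 fold change of 0.81 ± 0.26 (95% interval 0.22 to 1.40) that missed the threshold in edgeR (adjusted p = 0.0671) and passed it in DESeq2 (adjusted p = 0.0128) and, with WT replicate 1 left out, in edgeR (1.10, adjusted p = 0.00803).

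Cdh2 encodes N-cadherin, which in the tongue is also made by muscle and nerve (GRCm38, 18:16588877-16809246, minus strand). It was close to the limit of these libraries, at 0.588, 0.926 and 0.679 CPM in KO tongues, from 27, 35 and 36 reads, against 0.917, 1.58 and 2.11 CPM in WT tongues, from 32, 76 and 54 reads. KO replicate 2 lay just above WT replicate 1, so the groups overlapped. The log2 fold change was -1.07 ± 0.37 (95% interval -1.91 to -0.22), with an adjusted p of 0.0797 in edgeR, 0.0374 in DESeq2 and 0.0196 in edgeR with WT replicate 1 left out.

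Set against each other per kb of transcript, Cdh1 exceeded Cdh2 737-fold, 417-fold and 472-fold in KO tongues, against 321-fold, 133-fold and 69.7-fold in WT tongues. The log2 of this ratio averaged 9.04 ± 0.43 in KO and 7.17 ± 1.11 in WT tongues (SD, n = 3 each), a difference of 1.87 with no overlap. No test was made on this ratio of 2 members. Set against the fast muscle list, Cdh2 averaged -11.22 in KO and -11.22 in WT tongues (log2 level minus the list mean), with groups that overlapped (2-sided exact permutation p = 1.0), and the muscle genes themselves were lower in KO tongues, as given further on. Against this list the groups of 6 of the 10 genes did not overlap, where 63.5% of all genes did not. With the fast muscle mean as a covariate, Cdh2 had a log2 fold change of -0.05 and Cdh1 of -0.07. The fast muscle list means did not overlap between KO and WT tongues, so list and group cannot be told apart in this fit. It called 0 genes higher and 0 lower anywhere. The part of muscle in the cadherin values was not tested.

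Vim, the intermediate filament gene of mesenchymal cells (GRCm38, 2:13574311-13582826, plus strand), measured 287, 293 and 307 CPM in KO tongues, against 303, 346 and 347 CPM in WT tongues. KO replicate 3 was above WT replicate 1, and the other WT tongues were higher than all KO tongues. The log2 fold change of -0.17 ± 0.14 did not pass the test (95% interval -0.49 to 0.15; edgeR adjusted p = 0.391).

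Snai2, encoding Slug, a repressor also made by basal keratinocytes (GRCm38, 16:14705852-14709395, plus strand), measured 46.0, 51.8 and 59.3 CPM in KO tongues, against 46.5, 28.2 and 17.6 CPM in WT tongues. WT replicate 1 lay just above the lowest KO tongue, and the other WT tongues were lower. The difference of 0.76 ± 0.31 on the log2 scale had a 95% interval of 0.05 to 1.48 and missed the edgeR threshold (adjusted p = 0.112). Without WT replicate 1 it was 1.20 (adjusted p = 0.00699).

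Snai1, encoding Snail (GRCm38, 2:167538195-167542814, plus strand), measured 3.99, 2.70 and 4.42 CPM in KO tongues, against 3.96, 3.31 and 2.19 CPM in WT tongues. The groups overlapped across most of their range, and the difference of 0.23 ± 0.29 on the log2 scale (95% interval -0.43 to 0.89) did not pass the edgeR test (adjusted p = 0.577). Twist1, a helix-loop-helix factor (GRCm38, 12:33957671-33959831, plus strand), measured 4.88, 4.71 and 4.25 CPM in KO tongues, against 5.19, 5.55 and 5.0 CPM in WT tongues. These did not overlap, yet the difference was small, with a log2 fold change of -0.19 ± 0.17 (edgeR adjusted p = 0.423).

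Twist2, its relative found in dermal fibroblasts (GRCm38, 1:91801461-91848034, plus strand), measured 1.92, 1.43 and 2.19 CPM in KO tongues, against 1.95, 2.11 and 1.49 CPM in WT tongues. The means were 1.84 ± 0.39 CPM in KO and 1.85 ± 0.32 CPM in WT tongues (SD, n = 3 each), and the 95% interval of the log2 fold change, -0.61 to 0.60, leaves room for changes in either direction. An antisense gene, Gm29100, covers 46.5% of the exon bases of Twist2.

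Per kb of transcript, the 10 genes had the same order of mean levels in both groups. In KO tongues Vim led with 135 CPM per kb, followed by Cdh1 with 78.4 and Esrp1 with 71.1, whose libraries overlapped, and then by Snai2 with 25.9 CPM per kb. The other factors lay at 4.98 CPM per kb or less. Zeb1 stood above Zeb2 without overlap, while Zeb2 with Twist1 and Twist1 with Snai1 overlapped as neighbours. Twist2 followed at 0.731, with Cdh2 last at 0.151. In WT tongues Vim stood at 151 CPM per kb, Cdh1 at 44.8, Esrp1 at 39.1, Snai2 at 15.2, Zeb1 at 8.67, Zeb2 at 4.36, Twist1 at 3.22, Snai1 at 1.95, Twist2 at 0.731 and Cdh2 at 0.317, and only Cdh1 with Esrp1 and Snai2 with Zeb1 overlapped as neighbours. Transcript length was taken from the longest coding transcript, which may not be the one these tongues use.

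Marker lists of stroma and of basal keratinocytes also differed in summed level between the groups. Over all genes, edgeR called 4.81% higher and 7.43% lower, and the counts for each list stand against these shares. The summed level of 15 fibroblast genes was 1285 to 1689 CPM in KO and 1939 to 2340 CPM in WT tongues; 7 of the 15 fell, among them Dpt, Col6a3 and Col6a1, edgeR called 0 higher (0 at an unadjusted p under 0.05, and 0 by DESeq2 or voom), and the median log2 fold change was -0.58. The summed level of 12 endothelial genes was 462 to 548 CPM in KO and 635 to 829 CPM in WT tongues, with 3 that fell, Cdh5, Kdr and Tie1, and a median of -0.56. In 13 basal keratinocyte genes the sum was 13680 to 15260 CPM in KO and 6003 to 12220 CPM in WT tongues, and 0 passed the edgeR test. At an unadjusted p under 0.05, 6 lay above WT, where 18.2% of all genes did. DESeq2 called 5 higher, where it called 12.1% of all genes, voom called 0, and the median was 0.64. When WT replicate 1 was left out, 9 fibroblast and 10 endothelial genes were called lower and 10 basal keratinocyte genes higher. That fit called 18.1% of all genes lower and 17.9% higher. When WT replicate 3 was left out, 1 fibroblast and 1 endothelial gene were called lower, where 2.69% of all genes were. With any 1 of the other 4 libraries left out 0 were, but those fits called only 0 to 49 genes higher and 0 to 6 lower anywhere. Nothing about these lists or the later ones can be read from such counts of 0. No marker in these lists was at 0 counts in any library. The 10 genes were next set against 2 of these lists, by scaling every library to a list in turn.

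With each library scaled to an equal mean log2 level of the fibroblast list, which put the median log2 fold change of all genes at 0.56, Zeb1 had a log2 fold change of -0.24 (edgeR adjusted p = 0.271) and was no longer called. Zeb2 turned to 0.11, Vim to 0.38, Twist1 to 0.35 and Twist2 to 0.54, none of them called. Esrp1 at 1.38, Cdh1 at 1.31 and Snai2 at 1.29 were called higher under this scaling, where 47.1% of all genes were called higher and 1.38% lower. Set against the mean of the fibroblast list in the same library, 5 of the 10 genes had groups that did not overlap, where 60.2% of all genes did not. Zeb1 was among those that overlapped: its log2 level minus the list mean was -1.28, -1.04 and -0.97 in KO tongues, against -0.99, -0.81 and -0.75 in WT tongues (2-sided exact permutation p = 0.2, where 0.1 is the smallest that 3 against 3 can give). Set against the endothelial list, the groups of 6 of the 10 did not overlap, where 60.3% of all genes did not, and Zeb1 was one of the 6, at -0.39, -0.11 and -0.24 in KO tongues, against -0.044, 0.047 and -0.066 in WT tongues (2-sided exact permutation p = 0.1, the smallest possible). Over the 40 such comparisons made with 4 lists, the smallest p adjusted by the Benjamini-Hochberg method was 0.174.

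With each library scaled to the basal keratinocyte list, which put the median of all genes at -0.74, Esrp1 had a log2 fold change of 0.18 (edgeR adjusted p = 0.699), Cdh1 of 0.15 (0.762) and Snai2 of 0.15 (0.712). Zeb1 at -1.60, Zeb2 at -1.24 and Cdh2 at -1.90 were called lower, and Snai1 turned to -0.47, where 40.5% of all genes were called lower and 1.27% higher. The log2 level of Cdh1 minus the list mean was -0.22, -0.14 and -0.63 in KO tongues, against -0.52, -0.33 and -0.55 in WT tongues, which overlapped (2-sided exact permutation p = 0.4). Esrp1 minus the same list was -0.71, -0.32 and -0.97 in KO tongues, against -1.01, -0.80 and -0.68 in WT tongues, and these overlapped as well (2-sided exact permutation p = 0.5). Set against this list, the groups of 6 of the 10 genes did not overlap, where 46.3% of all genes did not; Zeb1 and Zeb2 were among the 6.

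**Figure D2:**
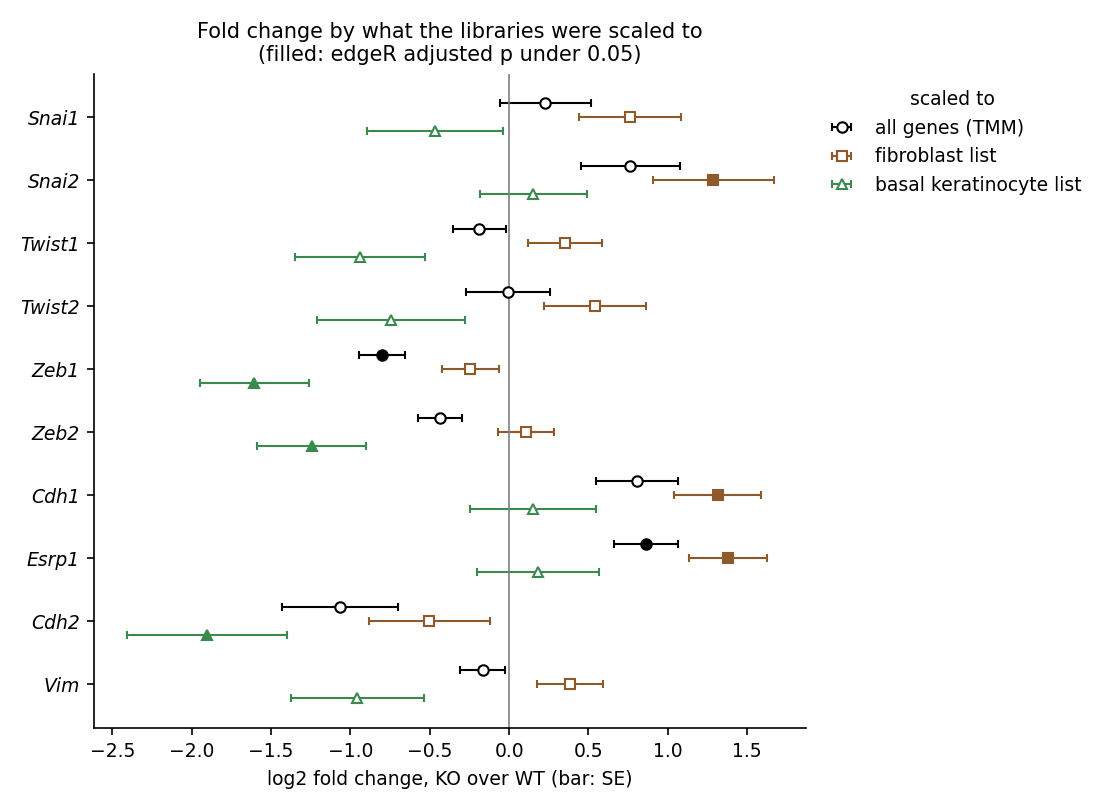
Log2 fold change, KO over WT, of the 10 genes (rows) with libraries scaled by TMM, to the fibroblast list or to the basal keratinocyte list; bars are SE and filled points passed the edgeR test. Zeb1 is at -0.80 with TMM, -0.24 against fibroblast genes and -1.60 against basal keratinocyte genes, and Esrp1 is at 0.86, 1.38 and 0.18.

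**Figure D3:**
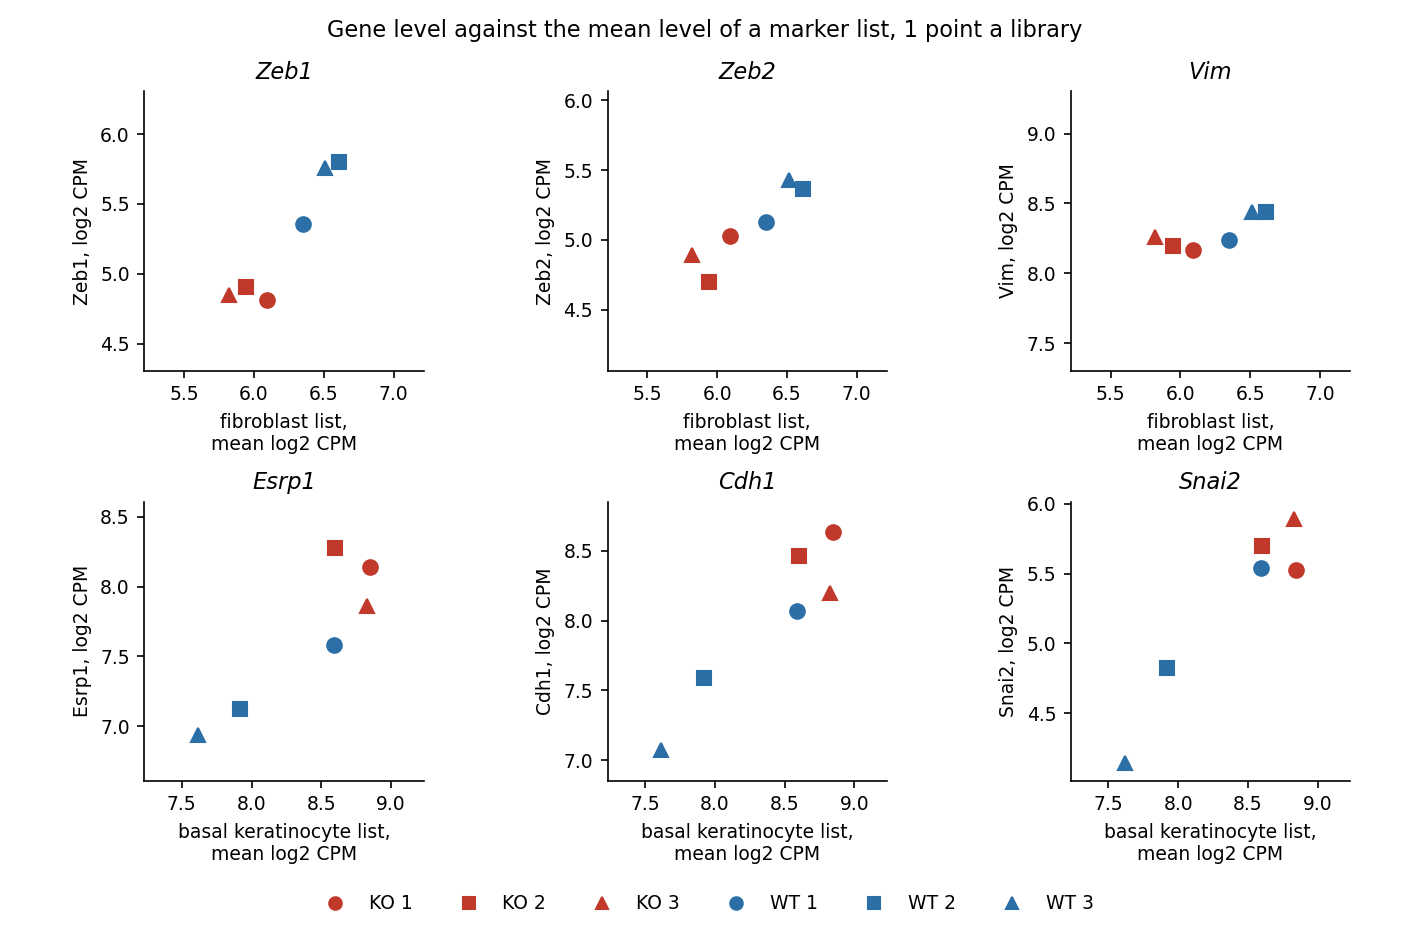
Log2 CPM of 6 genes against the mean log2 CPM of a marker list in the same library, 1 point a library, with equal steps on both axes. Zeb1, Zeb2 and Vim are set against fibroblast genes and Esrp1, Cdh1 and Snai2 against basal keratinocyte genes; the KO tongues stand lower on the fibroblast axis (5.82 to 6.09, against 6.35 to 6.61 in WT tongues) and higher on the keratinocyte axis (8.60 to 8.85, against 7.62 to 8.59 in WT tongues).

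Other genes of the epithelial state rose with Esrp1. Of 29 epithelial identity genes, 10 rose and 0 fell in KO tongues by edgeR, where 4.81% of all genes rose and 7.43% fell. At an unadjusted p under 0.05, or by DESeq2 or voom, 0 were below WT. The median log2 fold change was 0.92, and all 29 lay above 0. Cldn4, a tight junction claudin, measured 41.7, 43.4 and 42.4 CPM in KO tongues, against 17.6, 13.3 and 14.1 CPM in WT tongues (log2 fold change 1.5 ± 0.14, edgeR adjusted p = 0.0264). Grhl3, a grainyhead factor of epithelial barriers, averaged 149 ± 18.1 CPM in KO and 69.7 ± 7.4 CPM in WT tongues (1.09 ± 0.14, adjusted p = 0.0295). Ovol1, a repressor of mesenchymal genes in epithelia, averaged 139 ± 15.3 CPM in KO and 54.7 ± 15.01 CPM in WT tongues (1.34 ± 0.20, adjusted p = 0.0295). The suprabasal keratinocyte list, which holds genes of the upper, differentiated layers, had 5 of 12 higher with a median of 1.10, among them Cnfn, Tgm1 and Sbsn. Its summed level was 21830 to 33400 CPM in KO and 16130 to 22280 CPM in WT tongues, so the groups overlapped. Of the 29 epithelial identity genes, 23 were called higher without WT replicate 1 and 6 without WT replicate 3. Of all genes 17.9% and 1.81% were. The suprabasal count was 7 and 2 in the same fits. Without KO replicate 3, 2 epithelial identity genes and 0 suprabasal genes were called higher, where 49 genes were in the whole table. Without any 1 of the other 3 libraries 0 of either list were called, but those fits called only 0 to 4 genes higher anywhere. Under the basal keratinocyte scaling 1 of the 29 was called higher, and under the fibroblast scaling 27 were. These scalings called 1.27% and 47.1% of all genes higher.

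Of 26 mesenchymal target genes, 4 fell and 0 rose in the edgeR test, where 7.43% of all genes fell and 4.81% rose. Their median log2 fold change was 0.11, with 16 above 0 and 10 below. At an unadjusted p under 0.05, 4 lay above WT and 9 below it, where 18.2% and 20.3% of all genes did. The 4 above WT were Mmp9 (2.06 ± 0.62), Mmp3 (2.02 ± 0.75), Cd44 (0.92 ± 0.29) and Tgfbi (0.44 ± 0.17), none of them called by edgeR. DESeq2 called 2 higher and 7 lower, where it called 12.1% and 15.9% of all genes. In voom it was 1 higher and 4 lower. The 4 that fell in the edgeR test included Lgals1, encoding galectin-1 (-0.95 ± 0.21, edgeR adjusted p = 0.0375), and Cdh6, a type II cadherin (-1.36 ± 0.32, 0.0404). The others were Fn1, encoding fibronectin (-0.93 ± 0.23, 0.0424), and Fbn1, encoding fibrillin-1 (adjusted p = 0.0490). Cdh6 was close to the limit of these libraries, at 0.261, 0.291 and 0.340 CPM in KO tongues, against 0.631, 0.917 and 0.743 CPM in WT tongues. Fn1 measured 173, 124 and 105 CPM in KO tongues, against 199, 292 and 277 CPM in WT tongues. The summed level of the 26 genes was 1713 to 2122 CPM in KO and 1822 to 1858 CPM in WT tongues, so that the WT range lay inside the KO range. Without WT replicate 1, 9 were called lower and 6 higher, where 18.1% and 17.9% of all genes were. Without WT replicate 3 the 4 calls became 1, where 2.69% of all genes were called lower. Without any 1 of the other 4 libraries they became 0, in fits that called few genes anywhere. Under the fibroblast scaling 13 were called higher and 0 lower, where 47.1% and 1.38% of all genes were. Under the basal keratinocyte scaling 2 were called higher and 10 lower, where 1.27% and 40.5% of all genes were.

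Of 34 EMT inducers and cofactors, 4 fell and 0 rose in the edgeR test, where 7.43% of all genes fell and 4.81% rose. Their median was 0.10. At an unadjusted p under 0.05, 8 lay above WT and 5 below it, where 18.2% and 20.3% of all genes did. DESeq2 called 3 higher and 5 lower, where it called 12.1% and 15.9% of all genes. In voom it was 2 higher and 4 lower. The ligand gene Tgfb3 averaged 21.9 ± 1.89 CPM in KO and 39.3 ± 8.48 CPM in WT tongues (log2 fold change -0.85 ± 0.18, edgeR adjusted p = 0.0354). Prrx1, a homeobox factor of mesenchyme, averaged 60.5 ± 5.30 CPM in KO and 95.05 ± 13.2 CPM in WT tongues (-0.65 ± 0.14, 0.0359). Btrc, encoding the ubiquitin ligase subunit that targets Snail for breakdown, fell as well (edgeR adjusted p = 0.0425). Without WT replicate 1, 5 were called lower and 9 higher, where 18.1% and 17.9% of all genes were. Without WT replicate 3, 1 was called lower, where 2.69% of all genes were. Without any 1 of the other 4 libraries 0 were, in fits that called few genes anywhere. Under the fibroblast scaling 23 were called higher and 0 lower, where 47.1% and 1.38% of all genes were. Under the basal keratinocyte scaling 0 were called higher and 11 lower, where 1.27% and 40.5% of all genes were.

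Among 14 tested genes of the cadherin and catenin list, other than Cdh1 and Cdh2, 6 fell and 0 rose in the edgeR test. Their median was 0.04. Of all genes, 7.43% fell and 4.81% rose. At an unadjusted p under 0.05, 4 lay above WT and 6 below it, where 18.2% and 20.3% of all genes did. DESeq2 called 3 higher and 6 lower, where it called 12.1% and 15.9% of all genes, and voom called 1 and 5. Under the fibroblast scaling 7 were called higher and 0 lower, where 47.1% and 1.38% of all genes were. Under the basal keratinocyte scaling 0 were called higher and 6 lower, where 1.27% and 40.5% of all genes were. The 6 that fell in the edgeR test included Cdh5 of endothelium (-0.80 ± 0.15, edgeR adjusted p = 0.0325) and Ctnna3 of muscle junctions (-1.19 ± 0.27, 0.0375). The others were Cdh19 of Schwann cells (-0.90 ± 0.20, 0.0377), Cdh6, Cdh13 and the muscle cadherin Cdh15. Cdh5, Cdh15 and Cdh19 are also in the endothelial, myogenic and Schwann lists. Cdh6 and Cdh11 are also among the mesenchymal targets, and Cdh3 and Jup among the epithelial identity genes. The counts for those lists therefore share genes with this one. Cdh3, encoding the P-cadherin of basal keratinocytes, had a log2 fold change of 0.84 ± 0.34 (adjusted p = 0.112), and Cdh11, a cadherin of mesenchyme, of 0.58 ± 0.28 (adjusted p = 0.167). Muscle genes moved with Cdh15 and Ctnna3: 5 of 15 fast muscle genes fell, with a median of -1.01, and their sum was 45150 to 63630 CPM in KO and 79840 to 146600 CPM in WT tongues. Markers of Schwann cells (3 of 9 fell, Cdh19 among them, median -0.48) and of mural cells around vessels (3 of 7 fell, median -0.75) did so too. In each of the Schwann and mural lists 1 gene lay above WT. The part of these cells in the cadherin values was not tested. The 6 cadherin and catenin calls became 1 without WT replicate 3, where 2.69% of all genes were called lower. They became 0 without WT replicate 2 or any 1 of the KO replicates, in fits that called few genes anywhere. Without WT replicate 1, 6 were called lower and 5 higher, where 18.1% and 17.9% of all genes were. Without WT replicate 1 the fast muscle, Schwann and mural calls became 13, 4 and 5, and 1 Schwann gene was called higher. Without WT replicate 3 the calls became 0, 1 and 2. Without any 1 of the other 4 libraries they became 0, in the fits that called few genes anywhere.

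**Figure D4:**
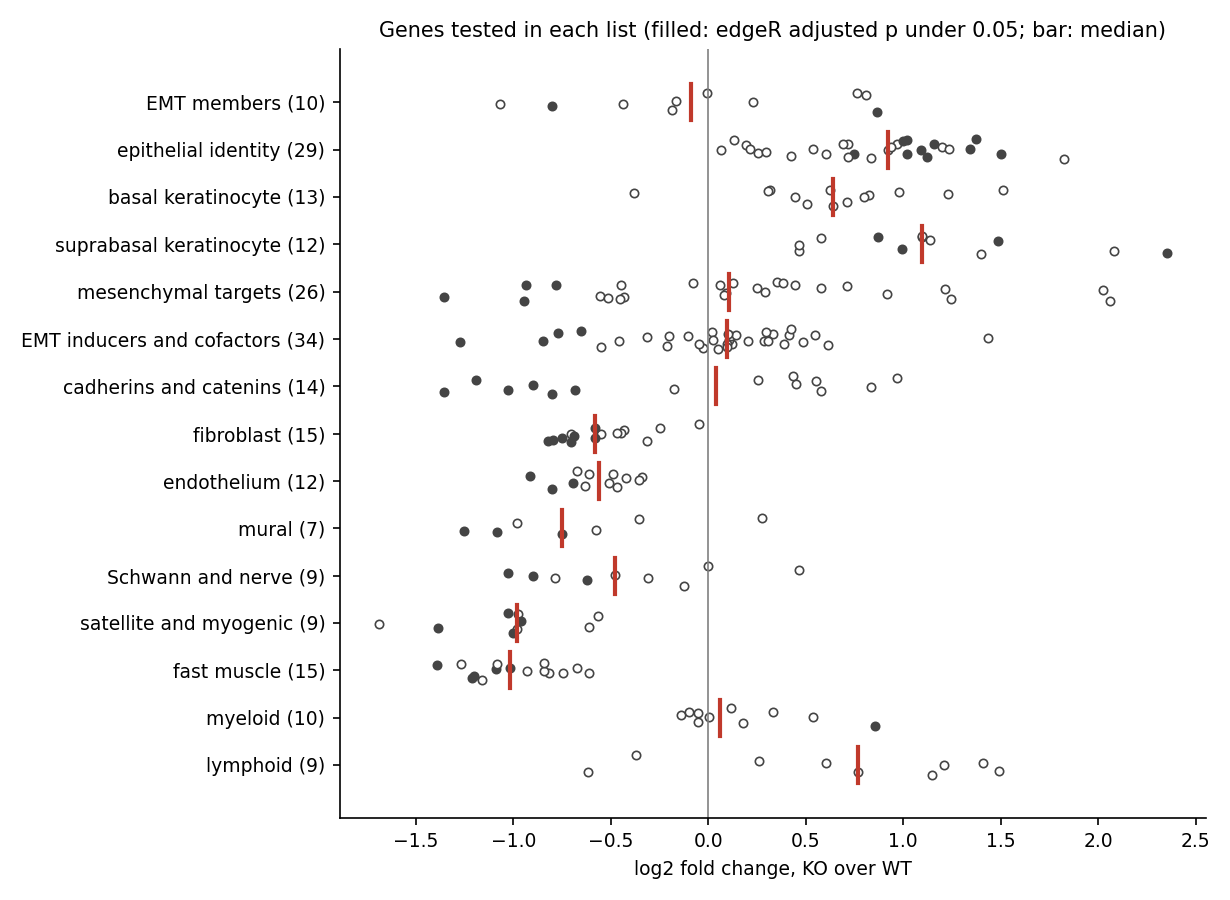
Log2 fold change, KO over WT, of every tested gene in the 10 EMT genes and 14 lists (rows); filled points passed the edgeR test, vertical position within a row is only to separate points, and bars are medians. The epithelial identity median is 0.92, the fibroblast median is -0.58, and the mesenchymal target genes spread to both sides of a median of 0.11.

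The genes whose profile over the 6 libraries was most like that of a member were found among 13512 genes, by the root mean square difference of log2 CPM after each gene was centred on its own mean. Zeb1 was nearest to Slfn5 (0.0199), Sdpr (0.0301) and Lrrc75a (0.0408). Esrp1 was nearest to Ccdc120 (0.0360), Spint1, an inhibitor of serine proteases on epithelial cells (0.0417), and Tmem54 (0.0603). Cdh1 was nearest to Ndnf (0.0397), Plek and Lrrc16a, Zeb2 was close to Lrba (0.0307), and Vim was nearest to Eid1 (0.0170), Suds3 and Idnk. Snai2 was nearest to Rpl27 (0.0567), Slc7a1 and Lmo1, Twist1 to Cbwd1 (0.0262), Bivm and Sppl2a, Twist2 to Cdv3 (0.0641), Glipr2 and Socs6, Snai1 to Zfp52 (0.0887), Unc119b and Mmp19, and Cdh2 to Eepd1 (0.0921), Nim1k and Mylk3. Likeness over 6 libraries is a description, since all genes share the depth and composition of each library.

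The authors' deposited table of all 6 libraries, whose log2 fold changes run WT over KO, called 5 of the 10 genes, where 28.7% of all its genes were called: Zeb1 (0.78, adjusted p = 1.24e-04), Zeb2 (0.43, 0.0329) and Cdh2 (0.87, 0.0355) were lower in KO, and Cdh1 (-0.73, 0.0126) and Esrp1 (-0.80, 8.94e-04) were higher in KO. Snai2 (-0.66, 0.0562) missed that table's threshold. The authors' deposited tables of 4 libraries share libraries with it, so they add no independent samples. In the one that holds KO replicates 1 and 2 with WT replicates 1 and 3, Esrp1 was the only one of the 10 called (-0.83, 0.0283), where 9.57% of its genes were called. In the authors' deposited table with WT replicate 2 in place of WT replicate 1, the 5 genes and Snai2 (-0.999, 4.29e-04) were called, where 35.7% of its genes were.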

How the data were processed

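RNA-seq libraries (Illumina TruSeq, total RNA) were made from 6 tongues, per the labels' protocols. The deposited values used are raw read counts per gene from the authors' table of 6 libraries, and no sample column was left unmapped (0). Per the file headers, the authors' tables also hold DESeq2 output: a mean normalised signal, log2 fold changes with standard errors, a test score, and raw and adjusted p-values. The submitters' processing notes name HTSeq, DESeq2, hg19 and mm10 with no role. Aligner, gene annotation and strandedness: not given in the sources used here.

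Counts were analysed in edgeR 4.0.16 (R 4.3.3): filterByExpr (10 counts, 15 in all), TMM, a robust quasi-likelihood fit with group as its only term, and Benjamini-Hochberg adjustment over all genes tested at 0.05. SE was derived from the fold change and its F statistic and is approximate. The common biological coefficient of variation was 20.7%. At 1 CPM a library held 25.6 to 53.0 counts. List means used a prior count of 2. DESeq2 1.42.0 and voom in limma 3.58.1 were alternatives. The fit was checked on simulated counts. Single values were compared by 2-sided exact permutation tests.

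The 10 genes and the lists were chosen with earlier results of these data known. The text names the 10 genes, of each list up to 3 called in each direction with the smallest adjusted p (or the 2 with the smallest p where none was called), the 3 nearest profiles of each of the 10 among genes averaging at least 1 CPM, the marker genes of the tissue, and Elavl1. Some genes that this rule names are not reported here. Esrp2, Fbn1, Btrc, Cdh3, Cdh11, Cdh13, Cdh15, Jup, Mmp9, Mmp3, Cd44 and Tgfbi and the microRNA and UTR searches were added after the values were seen.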

Additional observations from a re-analysis of the deposited data

How the results depend on the processing

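Results were recomputed under 17 alternatives. Over all genes, 765 were called higher and 1181 lower, and of the 10 genes 1 and 1. DESeq2 called 1881 higher and 2468 lower, and 2 and 3 of the 10. Same-numbered KO and WT replicates deviated from their group means with correlations of 0.122, -0.157 and 0.193, so the numbers are not shown to pair the tongues; with the replicate block 1705 genes were called higher and 2112 lower, and of the 10 genes 2 (Esrp1, Cdh1) were higher and 1 (Zeb1) lower. With the mean of the fibroblast, basal keratinocyte or fast muscle list as a covariate, edgeR called 0 higher and 0 lower over all genes and 0 of the 10. An unadjusted p under 0.05 held for 304 higher and 89 lower, 462 and 502, and 228 and 231 genes in these 3 fits. The fit with sex as a covariate rests on KO replicate 1 alone against the WT tongues, so no calls are given for it. Scaling to the fibroblast list gave 7486 higher and 220 lower, and 3 and 0 of the 10; scaling to the basal keratinocyte list gave 202 higher and 6437 lower, and 0 and 3 of the 10. Leaving out 1 library gave 0 to 2906 genes higher and 0 to 2938 lower, and 0 to 3 of the 10 in each direction. The fibroblast, basal keratinocyte and muscle list means did not overlap between KO and WT tongues, so list and group cannot be told apart in those 3 fits. Directions turned round in 7 genes, none called in the comparison of the 6 libraries. Snai1 was -0.22, -0.40 and -0.076 with the fibroblast, basal keratinocyte and muscle covariates and -0.47 under the basal keratinocyte scaling. Snai2 was -0.43 and -0.026 with the fibroblast and basal keratinocyte covariates. Twist1 was 0.095 with the fibroblast covariate and 0.35 under the fibroblast scaling. Twist2, with a main value of -0.01, was 0.0097 with the muscle covariate, 0.047 with sex, 0.54 under the fibroblast scaling, and -0.15 to 0.15 with 1 library left out, above 0 without KO replicate 2, WT replicate 1 or WT replicate 2. Zeb2 was 0.11 and Vim 0.38 under the fibroblast scaling, and with the muscle covariate Vim was 0.051 and Cdh1 was -0.071. The cause was not tested. Zeb1 (-1.60 to -0.24) and Esrp1 (0.18 to 1.38) kept their direction under all 17, and Cdh2 (-1.90 to -0.05) did too. Counts of 27 to 76 reads limit Cdh2, and 38 to 116 limit Twist2.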

Other observations

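Of 9 satellite and myogenic genes, which serve muscle formation and repair, 4 fell and 0 rose in KO tongues (edgeR; 0 were above WT at an unadjusted p under 0.05 or by DESeq2), with a median log2 fold change of -0.98: Myog, the factor of differentiating muscle, measured 12.0, 9.58 and 13.1 CPM in KO tongues, against 17.6, 21.2 and 30.8 CPM in WT tongues (-0.999 ± 0.23, edgeR adjusted p = 0.0380), and Myh3, the embryonic myosin, averaged 0.708 ± 0.086 CPM in KO and 1.86 ± 0.47 CPM in WT tongues (SD, n = 3 each). Over all genes edgeR called 7.43% lower and 4.81% higher. The 4 calls became 6 without WT replicate 1, where 18.1% of all genes were called lower. They became 0 without WT replicate 3, where 2.69% of all genes were. They also became 0 without WT replicate 2 or any KO replicate, in fits that called few genes anywhere.

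Of 10 myeloid genes 1 rose, Cd14, at 9.58 ± 2.02 CPM in KO and 5.30 ± 1.11 CPM in WT tongues (SD, n = 3 each; log2 fold change 0.85 ± 0.23, edgeR adjusted p = 0.0485); 2 were called without WT replicate 1 and 0 without any 1 of the other 5 libraries. Of 9 tested lymphoid genes edgeR called 0, with 4 at an unadjusted p under 0.05, while DESeq2 called 3 higher and edgeR called 6 higher without WT replicate 1. Cd3g, a chain of the T cell receptor complex, measured 3.62, 6.69 and 4.55 CPM in KO tongues, against 3.12, 1.40 and 0.703 CPM in WT tongues (edgeR adjusted p = 0.0718).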
